A study of Mus musculus with 32 samples.

Results

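MHC class I presentation was followed through 10 genes that were chosen by name and found in each of the 3 count tables by their Ensembl identifiers, out of 74021 rows in the LAG-3-sorted table, 74016 in the stage table and 74021 in the spinal cord table. They were the heavy chains H2-K1, H2-D1, H2-Q7 and H2-T23, the light chain B2m, the peptide transporter subunits Tap1 and Tap2, the loading factor Tapbp, the trimming enzyme Erap1 and the transcriptional regulator Nlrc5. All 10 passed the filter on low counts in all 3 tables. The series comprised 32 RNA-seq libraries from mice. CD11b+/CD45int microglia from lumbar spinal cord made up the first table, with LAG-3-low (n = 5) and LAG-3-high (n = 5) sorts of SOD1G93A mice at P140 and microglia of WT mice (n = 4), which were non-transgenic littermates whose age the labels do not give. The second table held CD11b+/CD45int microglia at P120 and P140, the early and late symptomatic stages, from SOD1G93A animals with LAG-3 intact (LAG-3+/+) or disrupted (LAG-3-/-), with n = 3 per group. The third held whole lumbar cord of these genotypes at P140, again with n = 3 per group. Every group except WT carried the human mutant SOD1G93A transgene in the heterozygous state, so LAG-3+/+ controls were diseased too, and LAG-3-/- denotes the Lag3tm1Doi targeted disruption, a disruption not limited to microglia. The labels do not say that the libraries of a group came from separate animals, so a p-value measures the spread between libraries, which may be technical.

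MHC class I molecules display peptides from the cell's own proteins to CD8+ T cells and to inhibitory receptors of NK cells. Proteasome products are pumped into the endoplasmic reticulum by the TAP1/TAP2 transporter, trimmed by ERAP1, loaded with the help of tapasin (Tapbp) onto a heavy chain paired with beta-2-microglobulin, and carried to the surface. NLRC5 is the transactivator of many of these genes, acting at a shared promoter module. In microglia class I genes are known to be induced by interferon and in disease-associated states.

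On GRCm39 the genes lay as follows. H2-K1 (17:34214987-34219321, minus strand), Tapbp (17:34134873-34148267, plus strand), Tap1 (17:34405996-34416199, plus strand), Tap2 (17:34422501-34435829, plus strand), H2-D1 (17:35481691-35486475, plus strand), H2-Q7 (17:35658131-35662749, plus strand) and H2-T23 (17:36340229-36345571, minus strand) lay in the H2 complex on chromosome 17. B2m (2:121977957-121983594, plus strand), Erap1 (13:74787687-74841320, plus strand) and Nlrc5 (8:95160984-95253900, plus strand) lay elsewhere. H2-K1, H2-D1 and H2-Q7 have close paralogs in the same complex, so reads shared between copies make the split of counts among them uncertain.

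The upstream sequences of a heavy chain, the light chain and a transporter subunit are shown because class I promoters are known for a shared regulatory module next to the start site. They are the 250 bases before the annotated start site in RefSeq on GRCm38.p6, 5′ to 3′ along the gene's strand, and capitals mark 4 motifs searched on both strands: TGACG, a core of CREB/ATF-type sites, GAANNGAAA, an interferon-response core, GGGGATTCC, an NF-kB-type site, and ATTGG, the reverse of the CCAAT box.
H2-K1 (17:34000334-34000583, minus strand): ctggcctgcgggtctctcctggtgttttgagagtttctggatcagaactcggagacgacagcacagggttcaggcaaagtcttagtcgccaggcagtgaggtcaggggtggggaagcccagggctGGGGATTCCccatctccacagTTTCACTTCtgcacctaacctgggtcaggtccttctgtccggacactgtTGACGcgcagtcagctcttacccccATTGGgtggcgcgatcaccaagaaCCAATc
B2m (2:122147437-122147686, plus strand): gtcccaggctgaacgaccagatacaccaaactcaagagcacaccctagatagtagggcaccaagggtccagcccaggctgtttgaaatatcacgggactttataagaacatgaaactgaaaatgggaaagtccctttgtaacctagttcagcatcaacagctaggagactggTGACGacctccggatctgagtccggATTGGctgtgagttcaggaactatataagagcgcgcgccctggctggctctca
Tap1 (17:34187306-34187555, plus strand): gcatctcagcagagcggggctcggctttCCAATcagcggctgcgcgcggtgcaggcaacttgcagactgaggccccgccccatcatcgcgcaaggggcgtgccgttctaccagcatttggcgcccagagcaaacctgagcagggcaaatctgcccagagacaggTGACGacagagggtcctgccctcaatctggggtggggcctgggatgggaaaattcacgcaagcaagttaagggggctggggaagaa
H2-K1 had 2 annotated start sites, and the more downstream is printed. Counted back from it, GGGGATTCC began at position -125, GAANNGAAA (minus strand, read as TTTCACTTC) at -104, TGACG at -55 and ATTGG at -30, with a CCAAT at -6. The B2m window held TGACG at -78 and ATTGG at -53, and the Tap1 window held CCAAT at -222 and TGACG at -86. The stretch gaaactgaaa in the B2m window has a longer gap between GAA and GAAA than the pattern searched and was not counted. The search therefore does not show that B2m lacks an interferon-response site. No match overlapped another in these windows. The windows of H2-D1 and H2-Q7 also held all 4 motifs, whereas those of H2-T23 and Tapbp held ATTGG or its reverse and none of the other 3. The Erap1 window held none of the 4 motifs, and no window was available for Tap2 or Nlrc5. Of 27025 mouse promoter windows of the same length, 17.9% held TGACG, 6.34% GAANNGAAA, 0.218% GGGGATTCC and 34.5% ATTGG, so GGGGATTCC was the rarest, and a match is a description of letters and not of a binding event.

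Library totals ran from 9403475 to 49512632 estimated counts, and levels are given as CPM, counts scaled to library size with TMM factors. Lag3 checked the labels: LAG-3-high libraries held 146 to 195 CPM, LAG-3-low libraries 34.8 to 57.8 and WT libraries 0.508 to 9.99, and in SOD1G93A/LAG-3-/- microglia it was 0.0239 to 0.462 CPM against 24.5 to 62.9 in SOD1G93A/LAG-3+/+ microglia. In cord it was 5.5 to 5.72 CPM in SOD1G93A/LAG-3-/- libraries against 43.4 to 74.5. All 9 microglia markers found of 10 listed were detected in every group. WT replicates 1 and 4 stood apart from the other WT libraries on the first principal component and leaned to short transcripts (Spearman correlation of a library's deviation with transcript length -0.171 and -0.204, against -0.054 and 0.0222 in the other WT libraries). The same lean separated P140 SOD1G93A/LAG-3+/+ libraries (-0.192 to -0.124) and P140 SOD1G93A/LAG-3-/- replicate 1 (-0.114) from the other stage libraries (0.103 to 0.181), and in cord SOD1G93A/LAG-3-/- libraries (-0.532 to -0.308) from SOD1G93A/LAG-3+/+ libraries (0.353 to 0.516). The members' longest transcripts ran from 1663 bases in H2-K1 to 7578 in Nlrc5, so member values fitted with offsets for length and GC content are given beside the member results they move. The other gene lists are given without such offsets.

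Levels per kilobase of longest transcript ordered the genes alike in every microglia group at the top and bottom. In LAG-3-high microglia H2-D1 stood at 3370.2 ± 466 CPM per kb (SD, n = 5), B2m at 2494 ± 316, H2-K1 at 635 ± 108, Tapbp at 293 ± 16.6 and H2-T23 at 147 ± 16.6 CPM per kb. H2-Q7 followed at 69.6 ± 25.4, Tap2 at 39.1 ± 7.59, Tap1 at 27.6 ± 8.12, Erap1 at 17.9 ± 3.37 and Nlrc5 at 4.54 ± 1.68 CPM per kb. H2-D1 and B2m were the highest pair and Nlrc5 the lowest in all 9 groups. In cord, where microglia are a minority, B2m was the highest at 201 ± 44.8 CPM per kb in SOD1G93A/LAG-3+/+ libraries (SD, n = 3), ahead of H2-D1 at 127 ± 32.6. Fewer microglia and less RNA per cell cannot be told apart in such bulk tissue.

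In microglia sorted by LAG-3, the heavy chains H2-K1 and H2-D1 and the light chain B2m were higher in the LAG-3-high than in the LAG-3-low population by 1.02 to 1.19 on the log2 scale, whereas the transporter subunits Tap1 and Tap2 overlapped between the sorts and did not pass the test. H2-D1 measured 2503, 3103, 3169, 3286 and 3642 CPM in LAG-3-low and 5553, 7080.4, 7299, 7716 and 8159.6 CPM in LAG-3-high libraries. B2m measured 1841, 2102, 2319, 2359 and 2466 CPM in LAG-3-low and 4628, 4692, 4866, 4952 and 6188 CPM in LAG-3-high libraries. H2-K1 measured 358, 483, 571, 574 and 617 CPM in LAG-3-low and 782, 997, 1105, 1139 and 1261 CPM in LAG-3-high libraries. For each of the 3 genes every LAG-3-high library lay above every LAG-3-low library. The share of all genes whose groups did not overlap was not counted. A lack of overlap, here and below, therefore describes the libraries and does not set the members apart. The log2 fold change was 1.19 ± 0.19 (SE, adjusted p = 0.0037) for H2-D1, 1.19 ± 0.31 (adjusted p = 0.058) for B2m and 1.02 ± 0.21 (adjusted p = 0.0152) for H2-K1 in the quasi-likelihood test of edgeR, adjusted by Benjamini-Hochberg over all genes. With the threshold set at an adjusted p under 0.1 and a log2 fold change above 1, 3 of the 10 members were called, against 0.818% of 16508 genes called higher by that rule, and the median log2 fold change was 0.89 over the members and -0.02 over all genes. Without a fold minimum 1.59% of all genes were higher and 2.8% lower, and the members' count stayed at 3.

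The other 7 members were not called. Tap1, a subunit of the peptide pump, measured 60.4, 86.2, 86.5, 94.6 and 106 CPM in LAG-3-low and 55.5, 72.8, 77.6, 105 and 118 CPM in LAG-3-high libraries (log2 fold change -0.016 ± 0.27, adjusted p = 0.998), and its partner Tap2 measured 123, 126, 145, 157 and 181 and 106, 156, 158, 171 and 186 CPM (log2 fold change 0.087 ± 0.35, adjusted p = 0.987). The groups overlapped for both genes. Tapbp (0.81 ± 0.35, adjusted p = 0.345), H2-T23 (0.68 ± 0.30, 0.353) and Erap1 (0.79 ± 0.44, 0.552) had log2 fold changes above 0 with groups that did not overlap, and did not pass the test. H2-Q7 (0.97 ± 0.45, 0.399) and Nlrc5 (1.07 ± 0.88, 0.768) overlapped between the groups. Within a library, where no scaling enters, LAG-3-high libraries held 61.9 to 106 H2-D1 counts per Tap1 count and LAG-3-low libraries 31.1 to 42.2. For B2m per Tap1 the ratio was 39.8 to 83.5 against 22 to 30.5. These ratios were chosen after the levels were seen and the difference between the genes' changes was not tested.

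Library scaling bore on these calls. Without TMM factors the median of all genes moved by -0.38 (log2), and H2-D1 stood at 0.81 (adjusted p = 0.0697), B2m at 0.81 (0.149) and H2-K1 at 0.64 (0.121), with 0 of the 10 called, and Tap2 turned to -0.28. H2-D1 was called with each library left out in turn (log2 fold change 1.12 to 1.27), whereas B2m was lost with any one of the 10 LAG-3-low or LAG-3-high libraries left out (highest adjusted p = 0.15), and H2-K1 fell under the fold minimum without LAG-3-low replicate 2 or 3, LAG-3-high replicate 1 or 4, or WT replicate 1 (lowest log2 fold change 0.91). In a fit of the 10 SOD1G93A libraries alone, which left WT out of the estimate of spread, 8 of the 10 members passed the adjusted p alone, against 11.6% of 14651 genes higher by that rule. Besides H2-D1 (1.11, adjusted p = 3.53e-05), B2m (1.11, 1.18e-05) and H2-K1 (0.95, 9.29e-04) these were Tapbp (0.74, 1.01e-04), H2-T23 (0.61, 0.0089), Erap1 (0.71, 0.018), Nlrc5 (1.0, 0.0435) and H2-Q7 (0.90, 0.085), and with the fold minimum 2 members were called, H2-D1 and B2m. Tap1 (-0.089, 0.82) and Tap2 (0.016, 0.958) did not pass in that fit. Without WT replicates 1 and 4, a choice made after the data were seen, Tapbp (0.77, adjusted p = 1.79e-04), H2-T23 (0.64, 0.0115) and Erap1 (0.75, 0.029) also passed the adjusted p alone, and B2m stood at 1.15 (6.91e-05). The 10 neutrophil markers moved with the sorts: LAG-3-high libraries held 0.141 to 4.86 CPM of them in sum, with Elane at 0, against 22627 to 65164 CPM in LAG-3-low and 5955 to 70492 CPM in WT libraries. Of the other marker lists, 3 did not overlap between the sorts. Monocyte and border macrophage markers summed to 232 to 622 CPM in LAG-3-low and 83.5 to 154 CPM in LAG-3-high libraries, where Cd163, Lyve1 and Ly6c2 were at 0, astrocyte markers to 2.14 to 12.8 and 21.1 to 65.7 CPM, and endothelial markers to 38.8 to 71.3 and 73.6 to 111 CPM. The endothelial sum in LAG-3-high libraries rested on 2 of 6 markers, with Cldn5, Cdh5, Ly6c1 and Slco1a4 at 0. Of 2 endothelial markers tested between the sorts 0 passed. The part of these differences in the class I levels was not tested.

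**Figure D1:**
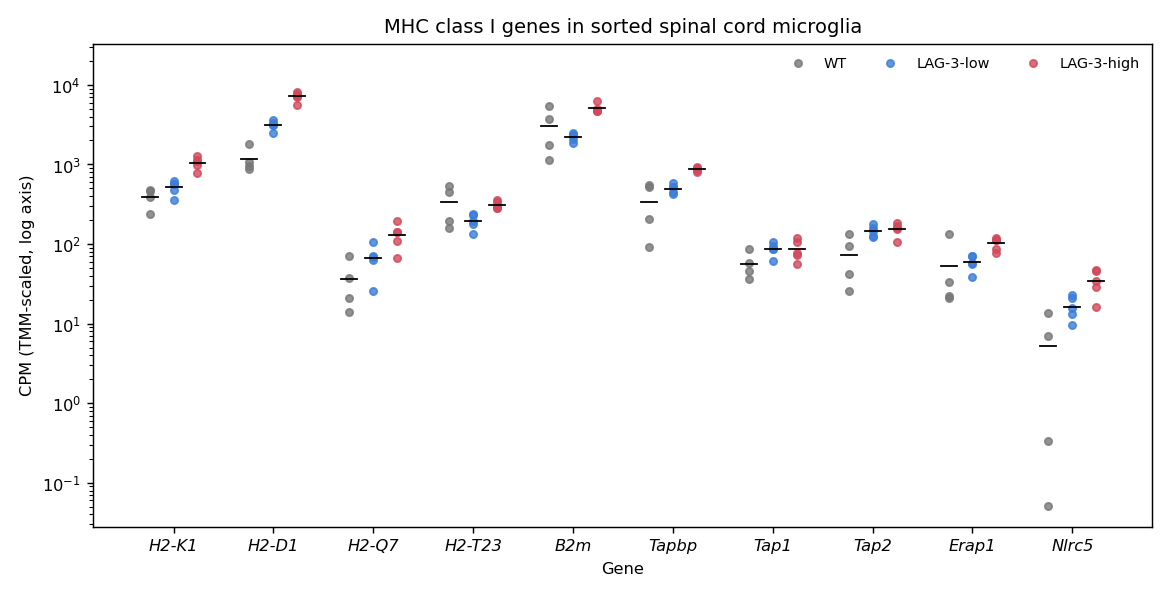
Levels of the 10 genes (horizontal axis) in TMM-scaled CPM (vertical log axis) in the WT (grey), LAG-3-low (blue) and LAG-3-high (red) libraries, one point per library with a line at each group mean. H2-D1, B2m and H2-K1 points of the LAG-3-high group all lie above those of the LAG-3-low group, and the Tap1 and Tap2 points of these groups intermix.

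Other parts of the pathway moved in few genes between these sorts, counted at an adjusted p under 0.1, by which 1.59% of all genes were higher and 2.8% lower. In the list of immunoproteasome and PA28 subunits, which cut peptides for class I, 1 of 6 passed the test, Psmb8 (log2 fold change 0.80 ± 0.22, adjusted p = 0.0627). Among 12 loading and trimming factors 2 passed, the aminopeptidase Lap3 (log2 fold change 1.19 ± 0.22, adjusted p = 0.0072) and the chaperone calnexin, Canx (log2 fold change 0.57 ± 0.14, adjusted p = 0.0395). Of 25 regulators of class I transcription 1 passed, Irf8 (log2 fold change 0.73 ± 0.20, adjusted p = 0.0738). Among 18 interferon response genes 0 passed by edgeR, with 1 at an unadjusted p under 0.05. Of 4 receptors that bind class I and were tested, 1 passed, downward, the inhibitory receptor Pirb (log2 fold change -1.45 ± 0.32, adjusted p = 0.0216). All 4 were at an unadjusted p under 0.05, with a median log2 fold change of -2.15. Of 12 other class I and class I-like heavy chains 0 passed, with 3 at an unadjusted p under 0.05. Over all genes 1988 of 16508 were at that unadjusted p. The part of the differing neutrophil marker levels in the receptor values was not tested.

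Against WT microglia, H2-D1, Nlrc5, H2-Q7, H2-K1, Tapbp and Tap2 were higher in LAG-3-high microglia. H2-D1 measured 877, 961, 1074 and 1798 CPM in WT libraries, with every LAG-3-high library above them (log2 fold change 2.60 ± 0.22, adjusted p = 3.51e-06). H2-K1 measured 241, 388, 464 and 474 CPM in WT and was also higher in every LAG-3-high library (1.43 ± 0.23, adjusted p = 7.20e-04). Tapbp measured 92.4, 206, 523 and 546 CPM in WT, again below every LAG-3-high library (1.35 ± 0.38, adjusted p = 0.0225). H2-Q7 at 13.9, 21.2, 37.3 and 71.3 CPM in WT (1.86 ± 0.50, 0.0169) and Tap2 at 25.8, 41.7, 94.7 and 133 CPM (1.07 ± 0.38, 0.0575) overlapped with the LAG-3-high libraries. Nlrc5 was scarce, with 0.051, 0.339, 7.04 and 13.4 CPM in WT against 16.2, 28.8, 34.2, 45.8 and 47 CPM in LAG-3-high (2.73 ± 1.02, adjusted p = 0.0702), the groups did not overlap, and the lowest WT value rests on 1 count. These 6 of 10 compare with 12.1% of all genes called higher by the same rule, 13.8% higher and 16.5% lower without a fold minimum.

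Calls against WT depended on the scaling. With offsets for length and GC content, which moved the median of all genes by -0.57, 1 member stayed called, H2-D1 (1.77, adjusted p = 7.26e-05). H2-K1 (0.75, 0.0622) and Tapbp (0.48, 0.0959) fell under the fold minimum, H2-Q7 (1.01, 0.184), Nlrc5 (1.5, 0.261) and Tap2 (0.0089, 0.983) did not pass, and Tap1 turned to -0.86 and Erap1 to -0.22. Without TMM factors Tap2 (0.71, 0.239), Tapbp (0.97, 0.116) and Nlrc5 (2.38, 0.107) were lost. With centred offsets Tap2 (0.58, 0.215), Nlrc5 (2.29, 0.116) and Tapbp (just under the fold minimum) were lost and B2m (1.37, 0.0025) was gained. In a fit of the LAG-3-high and WT libraries alone Tap2 (1.04, 0.157) and Nlrc5 (2.69, 0.18) were lost.

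WT spread was wide for the remaining genes. B2m measured 1122, 1779, 3752 and 5355 CPM in WT (log2 fold change 0.75 ± 0.33, adjusted p = 0.121), and the 2 higher values were WT replicates 1 and 4. The same 2 libraries held the highest H2-T23 values (159, 192, 454 and 529 CPM; -0.10 ± 0.31, 0.857), and WT replicate 4 held the highest Erap1 value (20.8, 22.5, 33 and 134 CPM; 0.95 ± 0.48, 0.168). Tap1 measured 36.7, 45.7, 57.4 and 85.5 CPM in WT (0.60 ± 0.29, 0.155). Without WT replicates 1 and 4, a choice made after the data were seen, B2m (1.86, adjusted p = 1.76e-05) and Erap1 (1.97, 4.78e-04) were called, H2-T23 turned to 0.87 (0.0088), and Tap2 (0.50, 0.124), Tapbp (0.74, under the fold minimum) and Nlrc5 (2.32, 0.11) were lost, while H2-D1, H2-K1 and H2-Q7 stayed called. Tap2 was also lost without WT replicate 1 or 4 or LAG-3-high replicate 1 or 4, and Nlrc5 without LAG-3-high replicate 1, 3 or 4.

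In LAG-3-low microglia H2-D1 was above every WT library (log2 fold change 1.42 ± 0.21, adjusted p = 7.81e-04), the 1 member called higher, against 10.9% of all genes by that rule and 12% higher and 12.9% lower without a fold minimum. Tap2 (0.99 ± 0.38, adjusted p = 0.0874) passed without the fold minimum. H2-T23 (-0.78 ± 0.31, 0.101) and B2m (-0.44 ± 0.33, 0.39) did not pass, and without WT replicates 1 and 4 they stood at 0.23 (0.464) and 0.71 (0.0171). With offsets for length and GC content, which moved the median of all genes by -0.73 here, H2-D1 was not called (0.44, 0.117). Both SOD1G93A sorts share the WT libraries as their control.

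From P120 to P140 in SOD1G93A/LAG-3+/+ microglia, all heavy chains but H2-Q7, the light chain B2m and the loading factor Tapbp rose, and Tap1, Tap2, Erap1 and Nlrc5 did not pass the test. The genes that rose had longest transcripts of 1663 to 2981 bases, and Tap1, Tap2, Erap1 and Nlrc5 of 3105 to 7578 bases. The split thus coincided with transcript length, H2-Q7 (1882 bases) aside. P140 libraries of this genotype leaned to short transcripts, and values with offsets for length are given below. H2-D1 measured 1729, 1934 and 2831 CPM at P120 and 6473, 8094 and 8214 CPM at P140 (log2 fold change 1.81 ± 0.37, adjusted p = 0.0095). B2m measured 2365, 2370.4 and 3196 CPM at P120 and 6514, 7966 and 8158 CPM at P140 (1.51 ± 0.34, adjusted p = 0.0127). H2-K1 measured 372, 474 and 599 and 1178, 1211 and 1460.3 CPM (1.41 ± 0.33, adjusted p = 0.0147). In all 3 genes each P140 library lay above each P120 library. H2-T23, which presents a narrow set of peptides to NK receptors, measured 231, 237 and 249 and 493, 527 and 574 CPM (1.15 ± 0.24, adjusted p = 0.0099), and Tapbp 349, 469 and 521 and 648, 857 and 1044 CPM (0.93 ± 0.27, adjusted p = 0.0367). Neither gene overlapped between the stages. These 5 of 10 compare with 11.9% of 18669 genes higher and 15.5% lower at an adjusted p under 0.1, and the median log2 fold change was 1.02 over the members and -0.22 over all genes.

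H2-Q7 measured 21, 26.7 and 64.6 CPM at P120 and 67.9, 84.7 and 91.1 CPM at P140 (1.12 ± 0.53, adjusted p = 0.164), without overlap between the stages, and it passed without P120 SOD1G93A/LAG-3+/+ replicate 1. Tap1 measured 54.2, 55.2 and 77.9 and 10.7, 77.7 and 110.5 CPM (0.088 ± 0.58, 0.941), Nlrc5 14.5, 17.6 and 22.6 and 5.06, 9.07 and 25 CPM (-0.48 ± 0.56, 0.601), and Erap1 75.8, 82.7 and 90.9 and 39.5, 85.8 and 90.6 CPM (-0.21 ± 0.29, 0.669). In all 3 the lowest P140 value was that of replicate 2, which was also the lowest for Tap2 (103, 172 and 206 CPM at P140 against 95.8, 127 and 145 at P120; 0.38 ± 0.30, 0.409). With offsets for length and GC content, Nlrc5 turned to 0.79 and Erap1 to 0.86 (adjusted p = 0.023). Tap2 stood at 1.15 (0.0351) and H2-Q7 at 1.32 (0.0996), so that 8 members passed. In that fit 19.9% of all genes were higher and 6.74% lower, and these offsets moved the median of all genes by 0.59. With centred offsets, added after that shift was seen and moving the median by 0.19, 5 members passed, against 12.5% of all genes higher and 9.7% lower. Nlrc5 was 0.42 and Erap1 0.47 there, neither passing. Tapbp was lost without P120 SOD1G93A/LAG-3+/+ replicate 3 or P140 SOD1G93A/LAG-3+/+ replicate 1, and without the latter Nlrc5 passed, downward (-1.37). Summed neutrophil markers were 1662 to 2516 CPM at P120 and 0.269 to 3445 CPM at P140, and monocyte and border macrophage markers 10.2 to 20.3 and 109 to 149.6 CPM. Summed microglia markers were 26873.5 to 30455 CPM at P120 and 37070 to 44622 CPM at P140. Sums of B cell, endothelial and oligodendrocyte markers were also higher at P140 without overlap, and the sum of NK cell markers was lower. Their part in the class I values was not tested.

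In this genotype, where 11.9% of all genes were higher and 15.5% lower at P140, all 6 immunoproteasome and PA28 genes passed upward, among them Psmb9 (log2 fold change 1.87 ± 0.33, adjusted p = 0.0064), Psmb10 (log2 fold change 1.31 ± 0.26, adjusted p = 0.0085) and the activator Psme2 (log2 fold change 1.44 ± 0.29, adjusted p = 0.0094). Of 13 other heavy chains 5 rose and 0 fell, led by H2-K2 (log2 fold change 1.68 ± 0.37, adjusted p = 0.0122), H2-M3 (log2 fold change 1.44 ± 0.33, adjusted p = 0.0138) and H2-T22 (log2 fold change 1.68 ± 0.42, adjusted p = 0.0194). Of 18 interferon response genes 9 rose, led by Irgm1 (log2 fold change 1.71 ± 0.37, adjusted p = 0.0115), Usp18 (log2 fold change 2.76 ± 0.61, adjusted p = 0.0124) and Bst2 (log2 fold change 1.28 ± 0.33, adjusted p = 0.0218). The 12 loading and trimming factors split into 2 higher and 5 lower, with Bcap31 higher (log2 fold change 1.53 ± 0.25, adjusted p = 0.0057) and the glycoprotein sensor Uggt1 (log2 fold change -2.15 ± 0.38, adjusted p = 0.0064) and the peptidase Tpp2 (log2 fold change -1.64 ± 0.31, adjusted p = 0.0078) lower. Of 25 regulators 3 were higher and 6 lower, led by the lower Rela (log2 fold change -1.34 ± 0.31, adjusted p = 0.0144), Jak2 (log2 fold change -2.65 ± 0.62, adjusted p = 0.0153) and Ifnar1 (log2 fold change -1.60 ± 0.39, adjusted p = 0.0181), and of 5 receptors 0 passed in either direction, with 1 at an unadjusted p under 0.05. These list values carry no offsets for transcript length, and P140 libraries of this genotype leaned to short transcripts. The part of that lean in the list counts was not tested.

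In SOD1G93A/LAG-3-/- microglia H2-D1, B2m and H2-K1 had higher means at P140 than at P120, and none of the 10 members was called. H2-D1 measured 1598, 1858 and 3479 CPM at P120 and 3158, 5089 and 7777 CPM at P140 (log2 fold change 1.21 ± 0.36, adjusted p = 0.475). B2m measured 1543, 1927 and 3122 and 3094, 5422 and 7848 CPM (1.31 ± 0.34, 0.475), and H2-K1 366, 367 and 719.6 and 623, 1057 and 1287 CPM (1.03 ± 0.33, 0.475). In each, P140 replicate 1 was high and replicate 3 overlapped with P120. By edgeR 0 of 18669 genes passed (0%), with 1658 at an unadjusted p under 0.05, 4 members among them. DESeq2 called 449 genes and 3 members, H2-D1 (1.23, adjusted p = 0.0655), B2m (1.33, 0.019) and H2-K1 (1.04, 0.093). Summed neutrophil markers were 0.116 to 1.02 CPM at P120, with Camp, Lcn2, Retnlg, Elane and Cd177 at 0, and 1.03 to 4503 CPM at P140, and monocyte and border macrophage markers 0.163 to 64.7 and 47 to 201 CPM. Their part in the class I values was not tested.

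Direct comparison of the genotypes gave no member called in edgeR at either stage. At P120 the members' log2 fold changes (SOD1G93A/LAG-3-/- over SOD1G93A/LAG-3+/+) ran from -0.27 to 0.79, with 0 at an unadjusted p under 0.05 and 0 called by DESeq2 or edgeR, and 0.0107% of all genes were called. At P140 they ran from -0.64 to 0.79 against 10.2% of all genes called. At an unadjusted p under 0.05 stood 1 member, against 4495 of 18669 genes, so this count does not set the members apart. That member was H2-T23, with 249, 307 and 464 CPM in SOD1G93A/LAG-3-/- against 493, 527 and 574 CPM in SOD1G93A/LAG-3+/+ libraries, all of the former below all of the latter (-0.64 ± 0.24, adjusted p = 0.131). It passed in DESeq2 (-0.73, 0.0301), which called 4281 genes here. The count over all genes depended on the fit. With the replicate block 626 genes were higher and 188 lower, and with length and GC offsets 472 and 1028. In a fit of the 2 P140 groups alone 0 of 15091 genes were called. H2-T23 also passed with RLE size factors (0.099) and without SOD1G93A/LAG-3-/- replicate 1 (-0.93, 0.0134). H2-D1 (-0.51 ± 0.36), B2m (-0.47 ± 0.33) and H2-K1 (-0.38 ± 0.32) overlapped between the genotypes at P140. Nlrc5 was called without SOD1G93A/LAG-3+/+ replicate 1 (1.68, adjusted p = 0.082).

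The genotype-by-stage interaction asks whether the stage change differs between genotypes. The members' interaction terms ran from -0.60 to 0.47 (log2), the smallest adjusted p was 0.45 in edgeR, and 0 members were at an unadjusted p under 0.05 or called by DESeq2, against 0.171% of all genes called. Without P140 SOD1G93A/LAG-3-/- replicate 1 the H2-T23 term was called (-0.89, adjusted p = 0.0888). A difference in stage change was otherwise not detectable at this spread, which does not show that the changes were alike.

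**Figure D2:**
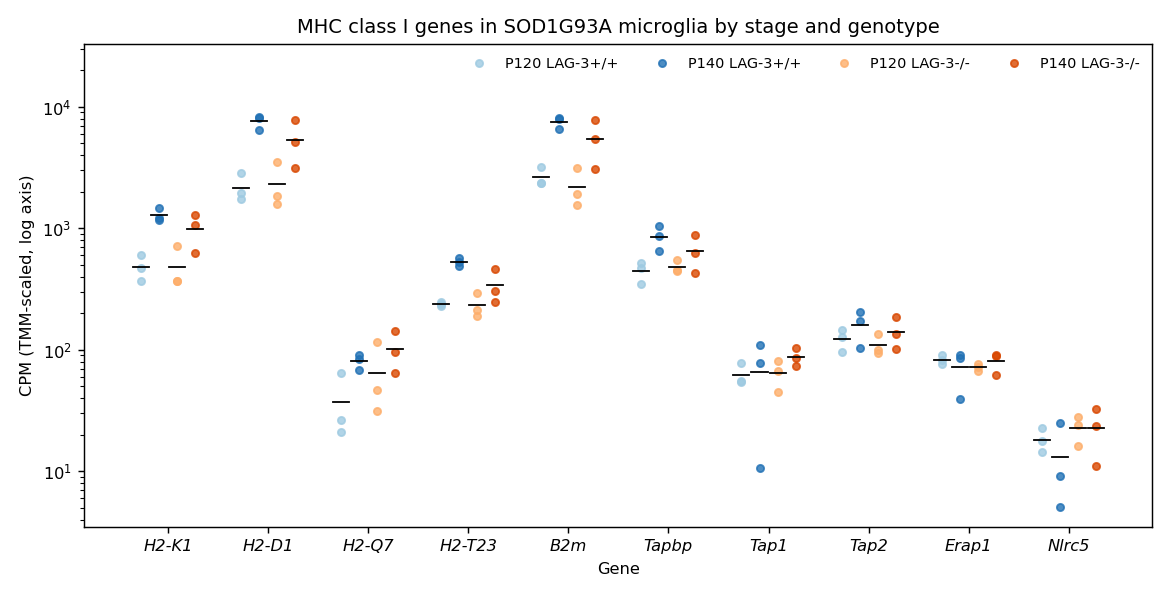
Levels of the 10 genes (horizontal axis) in TMM-scaled CPM (vertical log axis) in SOD1G93A/LAG-3+/+ (blues) and SOD1G93A/LAG-3-/- (oranges) microglia, the darker shade at P140, one point per library with a line at each group mean. P140 SOD1G93A/LAG-3+/+ points of H2-K1, H2-D1, H2-T23 and B2m lie above their P120 points, while the P140 SOD1G93A/LAG-3-/- points spread from the P120 range upward.

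In P140 spinal cord, Erap1 and Nlrc5 were lower in SOD1G93A/LAG-3-/- than in SOD1G93A/LAG-3+/+ mice, each by less than 1 on the log2 scale, and the heavy and light chains did not pass the test. Erap1 measured 25.9, 34.7 and 35.5 CPM in SOD1G93A/LAG-3+/+ and 17.4, 19.3 and 19.7 CPM in SOD1G93A/LAG-3-/- libraries (log2 fold change -0.77 ± 0.14, adjusted p = 0.0014). Nlrc5 measured 5.03, 5.31 and 9.99 and 3.55, 3.75 and 4 CPM (-0.85 ± 0.26, adjusted p = 0.0255). Neither gene overlapped between the genotypes. At an adjusted p under 0.1 alone Erap1 and Nlrc5 were 2 of 10 members lower, against 23.9% of 17702 genes lower and 23.1% higher. That count does not set the members apart from all genes. Of the 10, 0 reached the fold minimum of 1, against 7.52% of all genes in either direction. Erap1 and Nlrc5 had the longest transcripts of the members (5686 and 7578 bases), and SOD1G93A/LAG-3-/- cord libraries leaned to short transcripts. Their values with offsets for length and GC content are given below. Nlrc5 passed the fold minimum without SOD1G93A/LAG-3+/+ replicate 2 or 3.

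H2-D1 measured 197, 279 and 334 CPM in SOD1G93A/LAG-3+/+ and 233, 235 and 256 CPM in SOD1G93A/LAG-3-/- cord (-0.16 ± 0.17, adjusted p = 0.484). B2m measured 305, 447 and 474 and 266, 316 and 407 CPM (-0.31 ± 0.19, 0.236), H2-K1 104, 149 and 193 and 116, 124 and 134 CPM (-0.26 ± 0.19, 0.315), and Tapbp 64, 73.5 and 76.2 and 61.8, 62.6 and 67.2 CPM (-0.16 ± 0.10, 0.248). All 4 overlapped between the genotypes. With offsets for length and GC content H2-K1 (-0.73, 0.0169), H2-D1 (-0.55, 0.0309), B2m (-0.53, 0.0475) and Tapbp (-0.40, 0.0141) passed at an adjusted p under 0.1, Erap1 stood at -0.43 (0.0418) and Nlrc5 at -0.55 (0.176). In that fit 13.5% of 17702 genes were lower and 15.6% higher at the same threshold. Markers of several cell types moved with genotype: the summed oligodendrocyte markers were 14376 to 15656 CPM in SOD1G93A/LAG-3+/+ and 20466 to 28477 CPM in SOD1G93A/LAG-3-/- libraries, microglia markers 1152 to 1451 and 830 to 1133 CPM, and astrocyte markers 12245 to 14081 and 7062 to 11531 CPM. Their part in the class I values was not tested.

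In the other lists, counted at the same threshold by which 23.1% of all genes were higher and 23.9% lower, immunoproteasome and PA28 genes were higher in 4 of 6, led by Psmb10 (log2 fold change 0.99 ± 0.12, adjusted p = 3.05e-04), Pomp (log2 fold change 0.92 ± 0.14, adjusted p = 6.68e-04) and Psme2 (log2 fold change 0.54 ± 0.13, adjusted p = 0.0092). Interferon response genes were lower in 7 of 18, led by Rsad2 (log2 fold change -1.28 ± 0.24, adjusted p = 0.0018), Ifit2 (log2 fold change -0.61 ± 0.13, adjusted p = 0.0039) and Ifit1 (log2 fold change -0.99 ± 0.23, adjusted p = 0.0078). Regulators of class I transcription were lower in 13 of 24 and higher in 3, among them Creb1 (log2 fold change -0.52 ± 0.10, adjusted p = 0.0022) and Nfya (log2 fold change -0.55 ± 0.12, adjusted p = 0.0043). Other heavy chains were higher in 4 of 13, among them Fcgrt, H2-M3 and H2-Q2, and loading and trimming factors split into 3 higher and 4 lower, with Lnpep (log2 fold change -1.04 ± 0.11, adjusted p = 2.24e-04) and Tpp2 (log2 fold change -0.74 ± 0.11, adjusted p = 5.82e-04) lower. The 1 receptor tested, Pirb, was lower (log2 fold change -0.72 ± 0.22, adjusted p = 0.0252). These list values carry no offsets for transcript length, and SOD1G93A/LAG-3-/- cord libraries leaned to short transcripts. The part of that lean in the list counts was not tested.

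**Figure D3:**
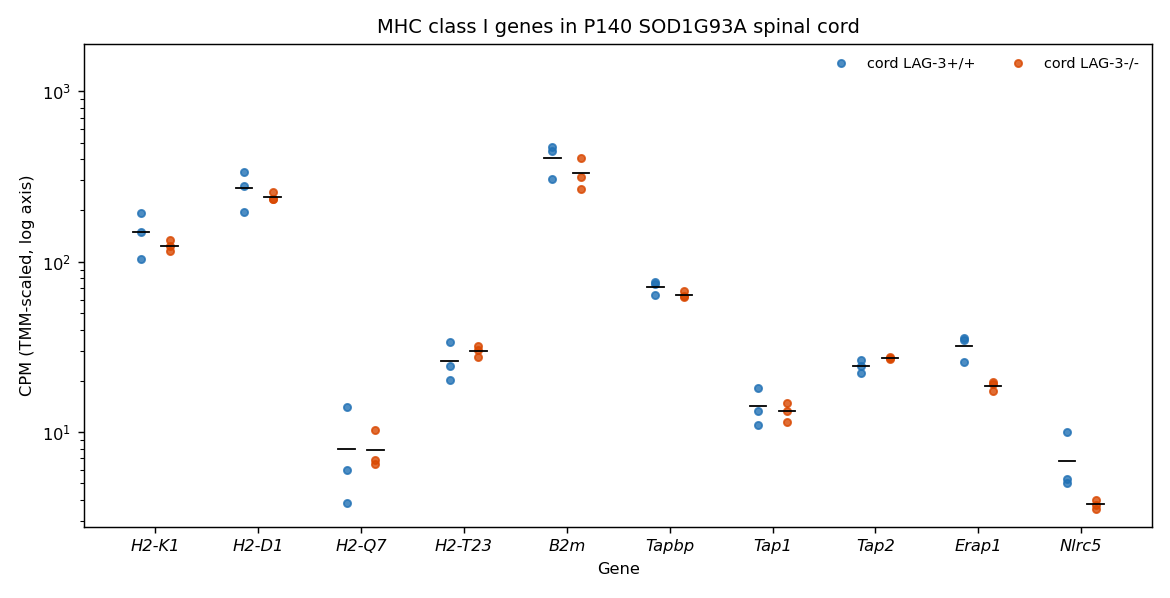
Levels of the 10 genes (horizontal axis) in TMM-scaled CPM (vertical log axis) in P140 lumbar spinal cord of SOD1G93A/LAG-3+/+ (blue) and SOD1G93A/LAG-3-/- (orange) mice, one point per library (n = 3 per group) with a line at each mean. Erap1 and Nlrc5 points of SOD1G93A/LAG-3-/- cord lie wholly below the other genotype, and those of Tap2 lie wholly above it.

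**Figure D4:**
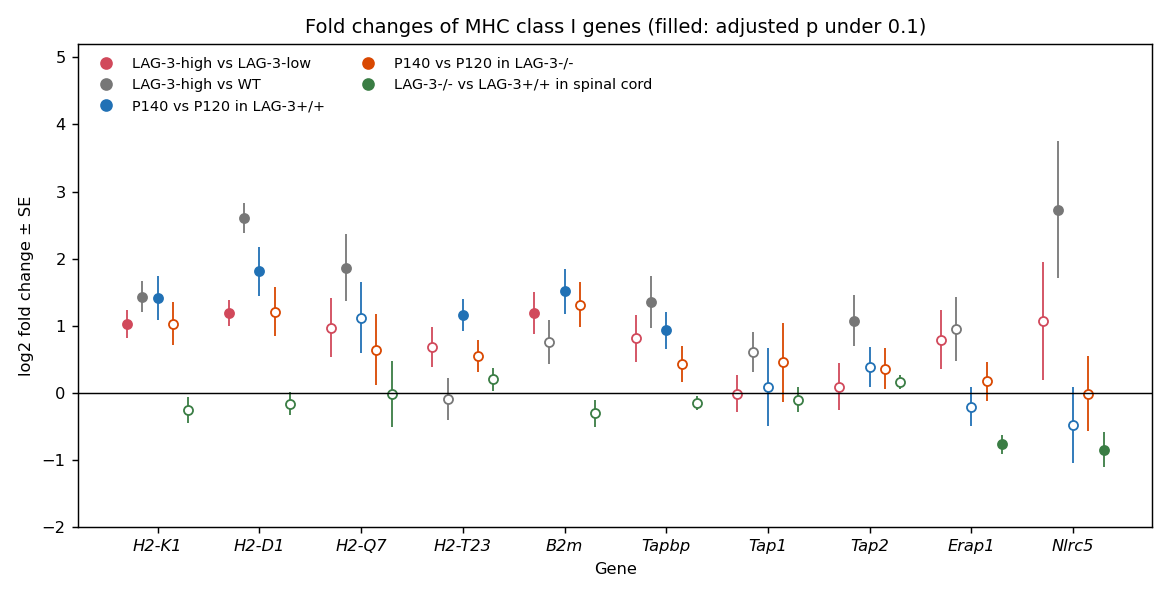
Log2 fold change with its standard error (vertical axis) for each gene (horizontal axis) in 5 comparisons, coded by colour; filled points had an adjusted p under 0.1 in edgeR. Filled points for LAG-3-high over LAG-3-low lie at H2-K1, H2-D1 and B2m, and in cord at Erap1 and Nlrc5, below 0.

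Patterns most like those of the members were described without a test. Over 14 LAG-3-sorted libraries and 8908 genes of at least 10 CPM on average, H2-K1 followed Ctsh (Pearson r of log2 CPM 0.93), Fth1 (0.93) and Npc2 (0.93), and B2m followed Rpl41 (0.98), Rpl32 (0.98) and Gm70676 (0.97). Over 12 stage libraries and 8665 genes, H2-K1 followed Cd72 (0.98), Ywhaz (0.97) and Npl (0.97), and B2m followed Cxcl16 (0.99), Grn (0.98) and Sdf4 (0.98). The libraries of a group share their condition and their lean to transcript length, so these values describe the tables.

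**Figure D5:**
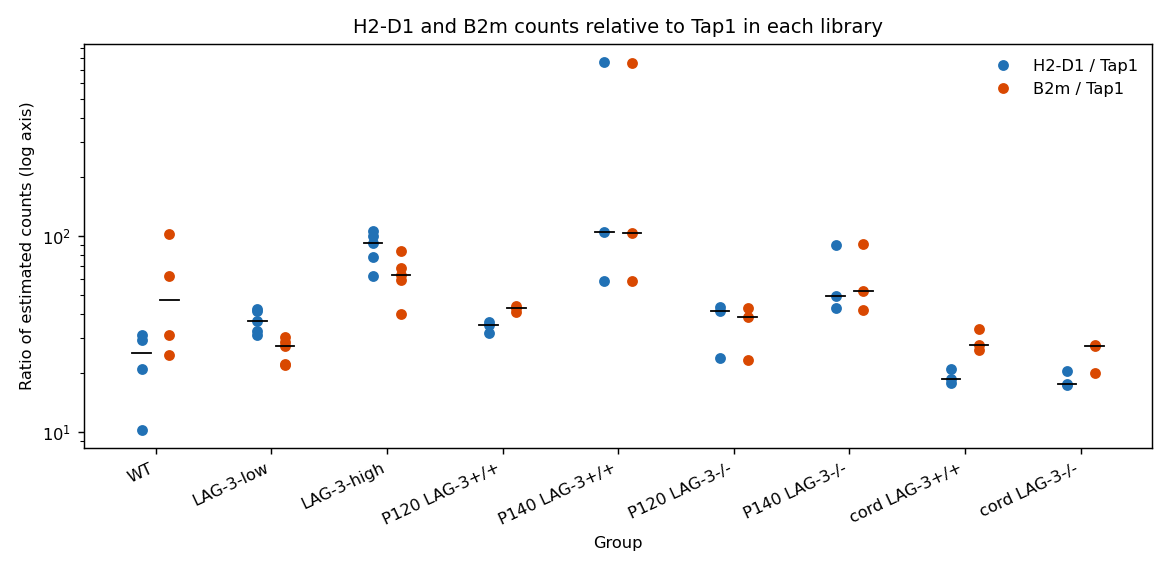
Ratio of H2-D1 (blue) and B2m (orange) estimated counts to Tap1 counts (vertical log axis) in each library of the 9 groups (horizontal axis), with a line at each group median. LAG-3-high libraries lie above LAG-3-low libraries for both ratios, and the highest point of each is P140 SOD1G93A/LAG-3+/+ replicate 2, whose Tap1 level was 10.7 CPM.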

How the data were processed

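RNA-seq of sorted mouse microglia and lumbar spinal cord was analysed (32 libraries). The authors trimmed reads with Trim Galore 0.6.7, quantified them with Salmon 1.9.0 against GRCm39 and imported them with tximport in R 4.2.1, and they deposited estimated counts per Ensembl gene that are not normalized; the annotation release is not given in the sources used here. The estimated counts were rounded to whole numbers, and symbols and coordinates came from GENCODE vM39 (GRCm39), which lacked 71, 66 and 71 identifiers of the sorted, stage and cord tables. A single model over all groups was fitted per table (edgeR 4.0.16, R 4.3.3, filterByExpr minimum count 10 and total 15, TMM, robust quasi-likelihood test, Benjamini-Hochberg over all genes tested). The study's rule for calls was kept: an adjusted p below 0.1, and in sorted and cord comparisons also a log2 change larger than 1 in size. All 10 members are named, and from other lists up to 3 genes of smallest adjusted p, except 1 that is not reported here. Members and lists were chosen with earlier results of these data known. Alternatives included DESeq2 1.42.0, other scalings and filters, a replicate block, sex, and offsets from a fit of each library on transcript length and GC content. A second form of these offsets, centred to a median of 0 in each library, was added after the values of the first were seen. The fit was tested on simulated data.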

Additional observations from a re-analysis of the deposited data

Results flagged for a closer look

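In the LAG-3-high group of 5 libraries, B2m in replicate 1 was 6188 CPM, and its gap to the next library took 0.792 of the group's range. Its group otherwise measured 4628 CPM at the lowest. In the WT group of 4, Erap1 in replicate 4 was 133.9 CPM, a gap of 0.892 of the range, and the same library stood apart on the first principal component. These were 2 of 30 gene and group combinations examined, and chance flags about 1 in 20.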

How the results depend on the processing

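Counts of members called moved as follows. LAG-3-high over LAG-3-low (3) fell to 0 without TMM factors, was 2 in a fit of these 2 groups alone and 4 with the replicate block and length and GC offsets, where H2-Q7 was gained (1.27, adjusted p = 0.0995), and ran from 1 to 3 with one library left out. LAG-3-high over WT (6) fell to 3 without TMM factors, to 1 with length and GC offsets and to 2 with these and the replicate block, and ran from 4 to 7 with one library left out; length and GC offsets moved the median of all genes by -0.57 there. LAG-3-low over WT (1) was 2 with DESeq2, RLE size factors, no low-count filter, the sex covariate or no fold minimum, 3 without WT replicates 1 and 4 (both chosen after the data were seen), and 1 to 3 with one library left out. P140 over P120 in SOD1G93A/LAG-3+/+ (5) was 8 with length and GC offsets and 4 to 6 with one library left out. In SOD1G93A/LAG-3-/- (0) it was 3 with DESeq2. The genotype effect at P140 (0) was 1 with DESeq2 or RLE size factors and 0 to 1 with one library left out, the interaction (0) 0 to 1, and cord (0) 2 without the fold minimum and 0 to 1 with one library left out. DESeq2 called 2 members in LAG-3-high over LAG-3-low, H2-K1 standing at 0.96, and 6 in P140 over P120. Without TMM factors the genes called higher and lower went from 135 and 441 to 35 and 633 in LAG-3-high over LAG-3-low, from 2000 and 2464 to 1488 and 3234 in LAG-3-high over WT, from 2219 and 2899 to 971 and 4120 in P140 over P120 in SOD1G93A/LAG-3+/+, and from 1347 and 561 to 2048 and 243 for genotype at P140. The cause of these changes was not tested.

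Some differences changed sign. In LAG-3-high over LAG-3-low, Tap2 was -0.28 without TMM factors and -0.032 with centred offsets, Tap1 0.031 with uncentred offsets and -0.16 to 0.11 with one library left out. In LAG-3-high over WT, H2-T23 was 0.079 without the low-count filter, 0.034 with centred offsets, 0.87 without both WT libraries and -0.31 to 0.23 with one left out, Tap1 -0.86 and Erap1 -0.22 with uncentred offsets. In LAG-3-low over WT, Tap2 was -0.10 with uncentred offsets, B2m 0.056 with centred offsets, 0.71 without both WT libraries and -0.70 to 0.0031 with one left out, and H2-T23 0.23 without both. In P140 over P120 in SOD1G93A/LAG-3+/+, Tap1 was -0.34 and Tap2 -0.076 without TMM factors, Nlrc5 0.79 and Erap1 0.86 with uncentred and 0.42 and 0.47 with centred offsets, and with one left out Tap1 ran -0.50 to 0.59 and Erap1 -0.41 to 0.083. In cord H2-D1 ran -0.35 to 0.017.

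Same-numbered libraries had correlations of deviations from -0.119 to 0.0674, which cannot decide whether they shared an animal. Across the SOD1G93A sorts the mean was 0.0323 for equal numbers and -0.00808 for unequal numbers. Sex followed the same order by number in both sorts. Replicate 2 was the lowest of each sort for H2-K1, H2-D1, H2-Q7, H2-T23, B2m, Tap1 and Tap2, though not for Tapbp, Nlrc5 or Erap1. The main test left the sorts unpaired, and the replicate block was an alternative. With the replicate block 3, 5, 1 and 5 members were called in the 4 comparisons that called any, Nlrc5 in LAG-3-high over WT was lost (3.52, adjusted p = 0.123), H2-T23 there was 0.011, Tap1 in P140 over P120 -0.00024. With the block and length and GC offsets together Tap1 (-0.62) and Tap2 (-0.0035) in LAG-3-high over WT, Tap2 (-0.12) in LAG-3-low over WT, and Nlrc5 (0.79) and Erap1 (0.83) in P140 over P120 changed sign. Of 642 values of single members under settings other than one library left out, 561 kept their sign and side of the threshold, 34 lost and 22 gained the call, and 25 changed sign.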
